A study of Mus musculus with 18 samples.

Results

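Transcripts of 9 genes that B cells use were followed through 18 libraries of sorted innate lymphocytes, to see how far B cell RNA entered each sort. The 9 members are the rows of the deposited count table whose symbol is Cd79a, Cd79b, Ms4a1, Ebf1, Pax5, Igkc, Ighm, Cd74 or H2-Aa, out of 46078 genes in the table. They were chosen by their levels in these libraries, counts that had been seen to differ between the sorted populations, so differences between spleen and liver, and between ILC1s and NK cells, are given as a description with no test.

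Each library held RNA of 200 cells sorted from C57BL/6 mice 8 weeks old and amplified with a SMART-seq kit. The 6 groups, with 3 libraries each, were spleen ILC1s, liver ILC1s and liver NK cells from RARa403 mice (genotype Ncr1-Cre; Rosa26-RARalpha403) and the same populations from control mice (genotype Ncr1-Cre). RARa403 is a truncated retinoic acid receptor alpha that acts as a dominant negative, switched on here by Cre under Ncr1, the gene of NKp46, and every mouse of both genotypes carried Ncr1-Cre. ILC1s were gated as CD3-, NK1.1+, NKp46+, CD49a+, CD49b low and IL-7R+ cells, and NK cells as CD3-, NK1.1+, NKp46+, CD49a- and CD49b+ cells. The gate as described names no B cell surface protein. The labels do not say which libraries came from which animal, so a p-value here speaks of library-to-library spread, which may be partly technical.

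B cells recognise antigen through the B cell receptor, an immunoglobulin made of heavy and light chains that signals through the paired proteins CD79A and CD79B. Ighm encodes the constant region of the IgM heavy chain and Igkc that of the kappa light chain, and each B cell joins its own variable segment to them. EBF1 and PAX5 are the transcription factors that set and hold B cell identity, and Ms4a1 encodes CD20 of the B cell membrane. Cd74 encodes the invariant chain and H2-Aa the alpha chain of MHC class II molecules, which present peptides and are made by B cells, dendritic cells and macrophages. The spleen is rich in B cells, and type 1 innate lymphoid cells (ILC1s) and natural killer (NK) cells are not known to carry a B cell receptor.

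Promoters are shown for a B cell receptor gene and a class II gene, 1 from each kind of member, as the RefSeq table of build GRCm38.p6 gives them. That table matched 4 of the 9 members, Cd79a, Ebf1, Pax5 and H2-Aa, with 5 promoters of 300 bases each, running from 250 bases before the start site to 50 after it. In the Cd79a promoter (chr7:24897247-24897546, plus strand) the capitals mark E boxes, the CANNTG motif bound by E proteins. In the H2-Aa promoter (chr17:34287774-34288073, minus strand) the capitals mark the Y box CCAAT, read on the other strand.
Cd79a: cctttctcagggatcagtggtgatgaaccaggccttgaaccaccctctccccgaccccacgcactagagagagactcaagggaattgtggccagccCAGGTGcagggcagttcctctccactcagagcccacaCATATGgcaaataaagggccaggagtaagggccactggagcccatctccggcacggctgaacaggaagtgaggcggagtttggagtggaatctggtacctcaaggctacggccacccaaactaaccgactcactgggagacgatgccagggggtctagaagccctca
H2-Aa: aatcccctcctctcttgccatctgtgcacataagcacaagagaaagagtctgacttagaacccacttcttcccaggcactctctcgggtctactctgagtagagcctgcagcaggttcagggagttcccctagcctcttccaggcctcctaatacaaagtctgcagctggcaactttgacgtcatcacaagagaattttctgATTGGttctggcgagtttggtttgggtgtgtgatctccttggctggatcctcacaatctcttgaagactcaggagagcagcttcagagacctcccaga

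The Cd79a window held 2 E boxes, starting 154 and 117 bases before its RefSeq start site. That site lies downstream of the gene start given below (24897381), from which the offsets would differ. At least 1 E box was held by 72.3% of 32544 promoters in the table. The H2-Aa window held 1 Y box, starting 48 bases before the start site, and 37.4% of promoters held one. None of the 5 promoters held CCCNNGGG, the core of the EBF1 motif, which 13.7% of promoters held, or the octamer ATTTGCAT, which 1.75% held. Both strands were searched in each window for these exact letters, and a match is a match of letters only. Sites that depart from the letters were not looked for, so no match does not mean no binding site.

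Library totals ran between 3452279 and 9038767 counts, so the level of 3 counts, used as the floor of detection, lay between 0.332 and 0.869 CPM (a gene's counts scaled to the library's total). The sorting markers Ncr1 (NKp46) and Klrb1c (NK1.1) were found in every library. The RARa403 liver NK library of replicate 1 stood apart, with 4439 Ncr1 counts against 8284 to 28158 in the other 17, and 1764 Rara counts against 119 to 399. Elsewhere Rara counts did not separate the genotypes, and the table does not tell reads of the truncated receptor from those of the mouse gene. The spleen libraries of replicate 1 also differed, with 19211 genes holding a count in the RARa403 library and 18870 in the control library, against 14307 to 17246 in the 16 others. All replicate-1 libraries carry description codes opening with 1 and the others with 2, and the labels do not say what that number means.

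B cell RNA was found in the spleen ILC1 libraries at a level that differed strongly from library to library, and most of the members were near or at 0 in the liver. Over Cd79a, Cd79b, Ms4a1, Ebf1, Pax5 and Igkc together, RARa403 spleen ILC1s held 44.0, 392 and 171 CPM in replicates 1, 2 and 3, against 21.4, 242 and 1770 CPM in control spleen ILC1s. RARa403 liver ILC1s held 6.57, 28.3 and 10.6 CPM, against 35.2, 17.7 and 20.9 CPM in control liver ILC1s. RARa403 liver NK cells held 13.9, 11.0 and 0.342 CPM, against 0.156, 6.56 and 0 CPM in control liver NK cells. Thus 4 spleen libraries, replicates 2 and 3 of both genotypes, stood above all others, while the replicate-1 spleen libraries lay close to the liver range. In the highest library, replicate 3 of control spleen ILC1s, the 6 genes took 0.177% of all counts (9612 counts). The lowest, replicate 3 of control liver NK cells, had none of its 5727907 counts on them, which allows up to 0.524 CPM. In bulk RNA, fewer B cells and less RNA per B cell cannot be told apart, and counts do not say which cells held a transcript.

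**Figure D1:**
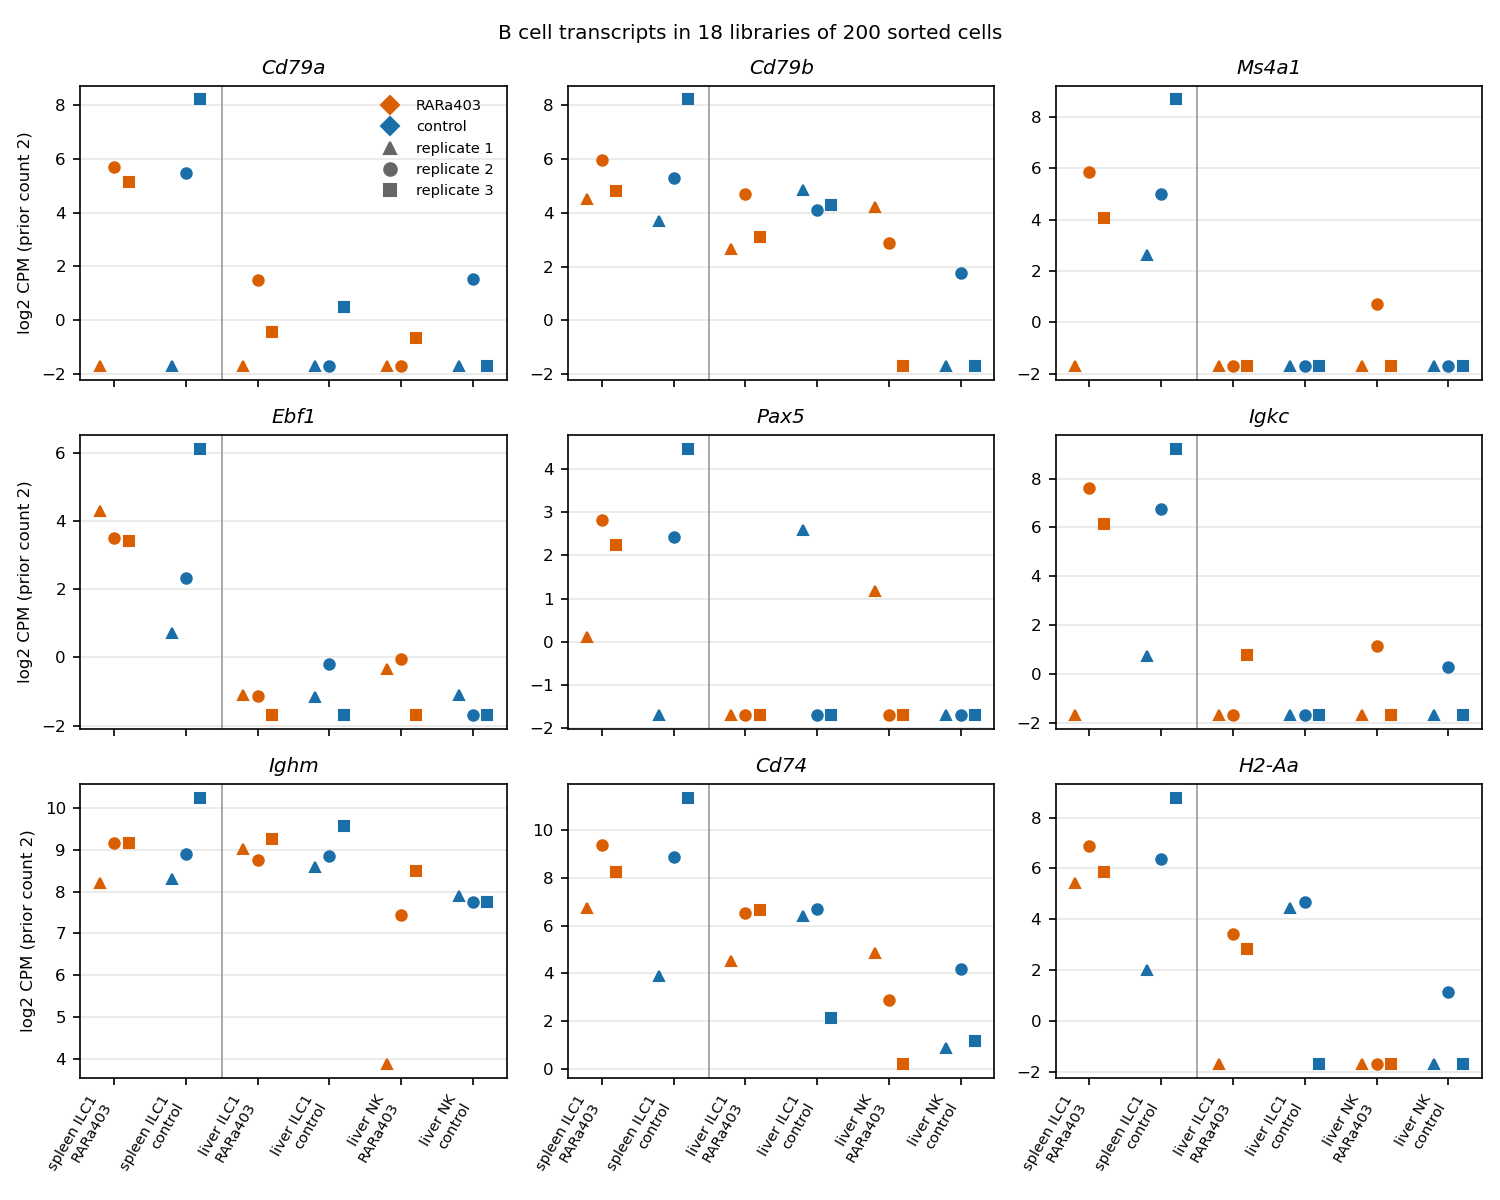
Levels of the 9 members as log2 CPM (y axis, prior count 2) in the 6 groups (x axis, spleen left of the line), 1 point per library, with colour for genotype and shape for replicate. Cd79a, Ms4a1 and Igkc are highest in spleen replicates 2 and 3 and Ebf1 is above the liver in all 6 spleen libraries, while Ighm is high in every group.

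Among the receptor's signalling chains, Cd79a (chromosome 7, positions 24897381 to 24902197 of mm10) had 0, 311 and 265 counts in RARa403 spleen ILC1s, against 0, 324 and 1671 in control spleen ILC1s. Both replicate-1 libraries lacked it, and the other 4 libraries lay above every liver library. Liver ILC1s had 0, 17 and 3 Cd79a counts in RARa403 mice, against 0, 0 and 5 in control mice. Liver NK cells had 0, 0 and 2 in RARa403 mice, against 0, 23 and 0 in control mice.

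Cd79b (chromosome 11, 106311341 to 106314762) was spread more widely. It had 145, 377 and 212 counts in RARa403 spleen ILC1s, against 105, 287 and 1693 in control spleen ILC1s. In liver ILC1s it had 39, 171 and 59 counts in RARa403 mice, against 210, 59 and 90 in control mice, so that every ILC1 library held it. In liver NK cells it had 74, 64 and 0 counts in RARa403 mice, against 0, 28 and 0 in control mice. Cd79b made up 81.9 to 97.5% of the counts of the 6 genes in liver ILC1 libraries, against 16.1 to 17.6% in spleen replicates 2 and 3. In those 4 spleen libraries Cd79a and Cd79b came in a narrow ratio, 0.825 and 1.25 Cd79a counts per Cd79b count in RARa403 and 1.13 and 0.987 in control spleen ILC1s. In the 6 liver ILC1 libraries that ratio lay between 0 and 0.0994.

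Ms4a1 (chromosome 19, 11249675 to 11266241) had 0, 350 and 128 counts in RARa403 spleen ILC1s, against 49, 234 and 2319 in control spleen ILC1s. It was at 0 in all liver libraries but 1, replicate 2 of RARa403 liver NK cells with 12 counts. In control mice the mean was 155 CPM in spleen ILC1s against 0 in liver ILC1s, at least 239-fold higher when the liver is set at its floor of 3 counts per library. Without control spleen replicate 3 that bound was 30.0-fold.

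The light chain gene Igkc (chromosome 6, 70726435 to 70726966) had 0, 1189 and 536 counts in RARa403 spleen ILC1s, against 11, 798 and 3410 in control spleen ILC1s. The 12 liver libraries held between 0 and 17 counts, and 9 of them held none. Control spleen ILC1s averaged 247 CPM against 0 in control liver ILC1s, at least 380-fold higher on the same floor. Without control spleen replicate 3 the bound was 87.8-fold.

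The transcription factor gene Ebf1 (chromosome 11, 44617317 to 45008091) was the member found in all 6 spleen libraries above every liver library. It had 126, 67 and 81 counts in RARa403 spleen ILC1s, against 11, 35 and 395 in control spleen ILC1s, and 0 to 6 counts in the liver. The 126 counts of RARa403 replicate 1 came with 0 counts of Cd79a, Ms4a1 and Igkc and 5 of Pax5. Other genes of the B cell lists were mixed there. Tnfrsf13c had 375 counts, Ighd 298, Cd79b 145 and Pou2af1 115, while Fcmr, Cr2, Siglecg and Ly6d were at 0. Ebf1 is also known from stromal cells, and that library held 230 counts of Dcn and 65 of Col1a1, both matrix genes of fibroblasts and stellate cells, against 0 to 22 and 0 to 12 in the other 17. Of the genes listed with them, Lrat, Kdr, Lyve1 and Eng were at 0 there, while Pecam1 had 540 counts and Stab2 35. The same library was also the highest for the hepatocyte genes Alb (250 counts) and Apoa1 (270) and the neutrophil genes Ngp (56) and Mpo (44). The part of any of these cells in the Ebf1 value was not tested.

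Pax5 (chromosome 4, 44524757 to 44710487) was the lowest of the members in the spleen, with 5, 41 and 34 counts in RARa403 spleen ILC1s, against 0, 37 and 124 in control spleen ILC1s. In the liver 42 counts stood in replicate 1 of control ILC1s and 8 in replicate 1 of RARa403 NK cells, and the other 10 libraries held none. The spleen and liver values of Pax5 therefore overlapped in control mice.

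Ighm (chromosome 12, 113418558 to 113422730) was high in most liver libraries too. It had 304, 591 and 600 CPM in RARa403 spleen ILC1s, against 320, 499 and 1260 CPM in control spleen ILC1s. Liver ILC1s held 542, 429 and 638 CPM in RARa403 mice, against 390, 465 and 774 CPM in control mice. Liver NK cells held 9.58, 170 and 368 CPM in RARa403 mice, against 237, 217 and 211 CPM in control mice. The mean in control spleen ILC1s was 1.28 times that in control liver ILC1s and 0.753 times without control spleen replicate 3, and the ranges overlapped. Control liver ILC1s averaged 543 ± 204 CPM, against 222 ± 13.6 CPM in control liver NK cells (SD, n = 3 each), with no overlap. In that comparison 8.71% of all 14714 genes tested lay higher without overlap, and of the members Ighm and Cd79b did. No member lay wholly lower, where 8.53% of all genes did. By edgeR 89 of the 14714 genes (0.605%) passed an adjusted p of 0.05 there, 0.428% of all genes higher and 0.177% lower, and nothing is read from that for the members, whose choice used these levels.

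Liver libraries with high Ighm thus had next to no light chain constant RNA. Replicate 3 of RARa403 liver ILC1s held 4347 Ighm counts with 10 of Igkc, a ratio of 435, and replicate 1 held 3297 with none. Spleen replicates 2 and 3 held 2.96 and 8.22 Ighm counts per Igkc count in RARa403 mice, against 4.43 and 2.02 in control mice. Replicate 1 of control spleen ILC1s held 2626 Ighm counts with 11 of Igkc, a ratio of 239. Ighd, the neighbouring IgD constant gene, had 298, 341 and 677 counts in RARa403 spleen ILC1s, against 62, 192 and 479 in control spleen ILC1s, and 0 to 120 in the liver. The sources used here give no strand setting for the counting, so reads from the opposite strand of the immunoglobulin loci cannot be told apart from those of the genes.

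**Figure D2:**
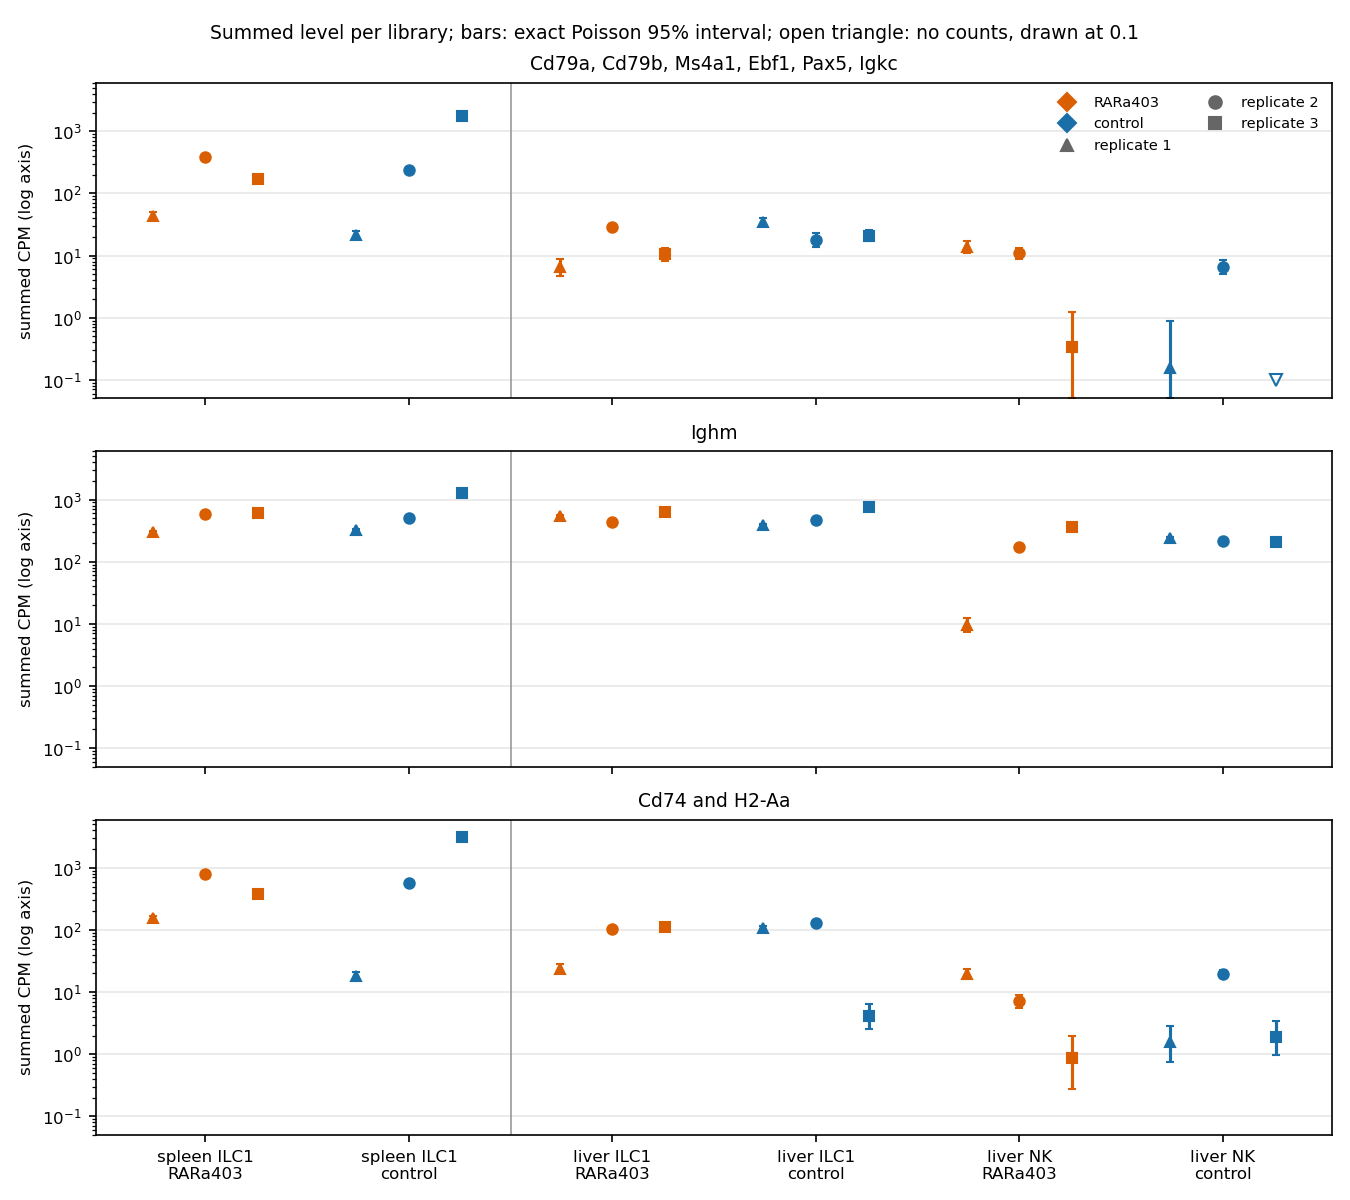
Summed CPM per library on a log axis for 6 members (top), Ighm (middle) and the class II members Cd74 and H2-Aa (bottom), by group on the x axis; bars are exact Poisson 95% intervals of the counts, which cover counting error alone. The top panel runs between 0 and 1770 CPM while Ighm stays between 170 and 1260 CPM in 17 libraries, with 9.58 CPM in replicate 1 of RARa403 liver NK cells.

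The class II members followed the B cell genes in the spleen but kept a level of their own in liver ILC1s. Cd74 (chromosome 18, 60803848 to 60812652) had 695, 3986 and 2294 counts in RARa403 spleen ILC1s, against 119, 3461 and 14765 in control spleen ILC1s. In liver ILC1s it had 145, 619 and 712 counts in RARa403 mice, against 626, 359 and 19 in control mice. In liver NK cells it had 118, 64 and 5 counts in RARa403 mice, against 10, 161 and 11 in control mice. Cd74 was thus found above the floor in all 18 libraries.

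H2-Aa (chromosome 17, 34282744 to 34287823) had 278, 714 and 449 counts in RARa403 spleen ILC1s, against 31, 601 and 2495 in control spleen ILC1s. Liver ILC1s had 0, 69 and 49 counts in RARa403 mice, against 159, 89 and 0 in control mice. In liver NK cells it was at 0 in all 3 RARa403 libraries, against 0, 17 and 0 counts in control libraries.

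In spleen replicates 2 and 3 the class II genes kept a near constant proportion to each other and to the B cell genes. There were 0.179 and 0.196 H2-Aa counts per Cd74 count in RARa403 and 0.174 and 0.169 in control spleen ILC1s. Cd74 counts were 1.71 and 1.83 times the counts of the 6 B cell genes in RARa403 and 2.02 and 1.54 times in control spleen ILC1s. Spleen replicate 1 departed from both, with 0.4 H2-Aa counts per Cd74 count in RARa403 and 0.261 in control. Its Cd74 counts were 2.52 times those of the 6 genes in RARa403 and 0.676 times in control. In liver ILC1s the same Cd74 ratio ran between 0.2 and 9.89.

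Other cells that make class II were looked for by their markers. Clec9a, a marker of conventional dendritic cells, was at 0 in all spleen and liver ILC1 libraries. Cd209a was at 0 in 5 of 6 spleen libraries with 1 count in the other, and Siglech of plasmacytoid dendritic cells had 0 to 36 counts in the spleen. Xcr1, also on the dendritic cell list, was called higher by DESeq2 in control liver ILC1s than in control liver NK cells. Its log2 fold change was 8.61 (DESeq2 adjusted p = 4.16e-05), and edgeR called 0 genes of that list there. Macrophage transcripts were high in 1 spleen library. Replicate 3 of control spleen ILC1s, the library highest in every member, held 1739 counts of the lysozyme gene Lyz2 and 540 of the receptor gene Csf1r, against 0 to 57 and 0 to 114 in the other spleen libraries. It also held 368 counts of Kdr and 393 of Stab2, both endothelial, against 0 to 33 and 0 to 35 in the other spleen libraries. The spleen libraries next in class II level, RARa403 replicate 2 (790 CPM of Cd74 and H2-Aa), RARa403 replicate 3 (373 CPM) and control replicate 2 (573 CPM), held 57, 0 and 40 Lyz2 counts. In the liver, replicate 1 of control ILC1s held 1560 Lyz2 and 197 C1qb counts with a class II level of 109 CPM, and replicate 2 held 16 Lyz2 counts with 130 CPM. Over the list of 14 macrophage and monocyte genes, 6 to 10 lay above the floor in RARa403 spleen ILC1s (summed level 359 to 913 CPM) and 7 to 11 in control spleen ILC1s (203 to 855 CPM). Of 12 dendritic cell genes, 7 to 8 lay above the floor in RARa403 spleen ILC1s (median summed level 360 CPM) and 7 to 9 in control spleen ILC1s (median 463 CPM). Those sums were led by Ly6c2 (mean 391 CPM over 18 libraries) and Itgax (237 CPM), genes that liver NK libraries held as well. The part of these cells in the class II values was not tested.

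Immunoglobulin variable genes are not among the members and were counted as well. Of 348 variable genes in the table, 77 had at least 10 counts in a spleen library, and 65 of them reached that count in exactly 1 of the 6 libraries. A further 10 did so in 2 libraries and 2 in 3 or more. These counts include the replicate-1 libraries, with 21 such genes in RARa403 and 15 in control, although Igkc was at 0 and 11 counts there. The kappa variable genes (Igkv) were led by a different gene in each of the 4 libraries of spleen replicates 2 and 3. Igkv12-89 held 34.2% of the Igkv counts in replicate 2 and Igkv17-127 held 61.6% in replicate 3 of RARa403 spleen ILC1s. Igkv14-100 held 45.1% in replicate 2 and Igkv4-57 held 16.1% in replicate 3 of control spleen ILC1s. The heavy chain variable genes (Ighv) held 66.1, 28.9 and 14.3 CPM in RARa403 spleen ILC1s, against 28.1, 10.6 and 88.0 CPM in control spleen ILC1s, so that RARa403 replicate 1 was the highest of its group. That family was led by Ighv10-3 with 34.3% in RARa403 replicate 2 and by Ighv9-3 with 25.1% in control replicate 3. Variable genes have near-identical relatives, and the sources used here do not give how multiply aligned reads were treated, so the identity of a single leading gene is uncertain.

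Kappa variable counts kept step with Igkc in 4 spleen libraries and not in the others. The Igkv genes together had 287, 398 and 203 counts in RARa403 spleen ILC1s, against 243, 304 and 1189 in control spleen ILC1s. Per Igkc count this was 0.335 and 0.379 in RARa403 replicates 2 and 3, against 0.381 and 0.349 in the same control replicates. The replicate-1 libraries broke that proportion, with 287 Igkv counts beside no Igkc count in RARa403 and 22.1 Igkv counts per Igkc count in control spleen ILC1s. The liver libraries of replicate 1 had 147 Igkv counts in RARa403 ILC1s, 119 in control ILC1s, 55 in RARa403 NK cells and 43 in control NK cells, all with Igkc at 0. The other 8 liver libraries had 1 to 14 Igkv counts.

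**Figure D3:**
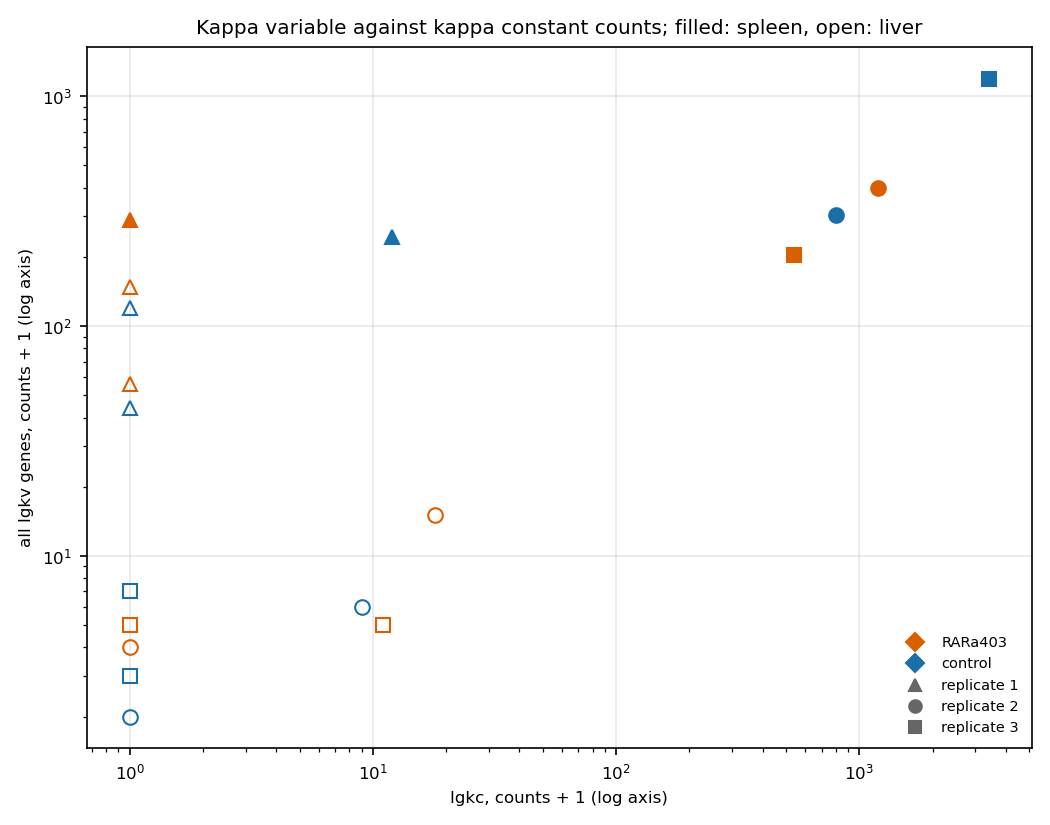
Counts of all Igkv genes (y axis) against counts of Igkc (x axis), both plus 1 on log axes, 1 point per library, filled for spleen and open for liver. Spleen replicates 2 and 3 line up at 0.335 to 0.381 Igkv counts per Igkc count, and the 6 replicate-1 libraries (triangles) lie to the left with 43 to 287 Igkv counts and at most 11 of Igkc.

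Of 19 surface and stage genes of B cells in the table, all 19 lay above the floor in replicates 2 and 3 of both RARa403 and control spleen ILC1s. In replicate 1 there were 12 in RARa403 and 11 in control spleen ILC1s, and in the 12 liver libraries 4 to 12. All 14 genes of receptor signalling were found in replicates 2 and 3, against 11 in RARa403 and 10 in control replicate 1. The lists of transcription factor and immunoglobulin constant genes did not part replicate 1 from the others as clearly. Of 12 B cell transcription factor genes, 11, 12 and 11 lay above the floor in RARa403 replicates 1, 2 and 3, against 10, 12 and 12 in control spleen ILC1s. Of 10 other immunoglobulin constant genes, 2, 4 and 4 did so in RARa403, against 4, 5 and 5 in control spleen ILC1s. Some genes of these lists were high in every population, such as Cd37 (a tetraspanin of lymphocytes), Cd72 and Plcg2, so a list's summed level is not a measure of B cells alone. Cd37 had 3257, 3443 and 4383 counts in RARa403 spleen ILC1s, against 4210, 4151 and 3615 in control spleen ILC1s, and 1033 to 4794 in the liver. The plasma cell gene Jchain reached at most 28 counts, in replicate 2 of RARa403 liver NK cells, beside 101 counts of Igha. Mzb1 of the same plasma cell list reached 424 counts in the spleen and 5 in the liver. That list of 10 genes summed to 691 to 994 CPM in RARa403 and 755 to 834 CPM in control spleen ILC1s. Control liver NK cells held 751 to 881 CPM of it.

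Genes whose pattern was most like the mean log2 CPM of the 7 B cell members (Cd79a, Cd79b, Ms4a1, Ebf1, Pax5, Igkc and Ighm) over 18 libraries included Spib (Pearson r = 0.967), Iglc3 (0.966), Fcmr (0.966), Ly6d (0.952), Blk (0.946), Siglecg (0.941), Mzb1 (0.918), Cr2 (0.91) and Fgd2 (0.895). These are descriptions without a p, since the points share library and depth and many are at 0. Spib, a transcription factor gene of B cells, had 1, 125 and 140 counts in RARa403 spleen ILC1s, against 0, 71 and 643 in control spleen ILC1s, and none in the liver. Against the same mean, which includes each of them, Ighm had r = 0.4 and Cd79b 0.67, below the other 5 (0.79 to 0.93). Over the 6 spleen libraries alone the order was another, with 0.96 for Ighm, 0.88 for Cd79b and 0.54, the lowest, for Ebf1.

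RARa403 was then compared with control, a contrast the choice of members did not use, with edgeR's quasi-likelihood test fitted on all 14714 genes past the filter on low counts. All 9 members passed that filter, most of them through their spleen libraries. In spleen ILC1s 0 of 14714 genes passed an adjusted p of 0.05 (0% in either direction), 425 had an unadjusted p under 0.05, and DESeq2 called 20, none of them a member. No member passed, each with an adjusted p of 1. No member lay wholly higher or wholly lower in RARa403, where 4.12% of all genes were higher and 5.02% lower without overlap.

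The fitted values in spleen ILC1s were nonetheless all below 0, with a median log2 fold change of -1.43 over the 7 B cell members, beside -0.003 over all genes. Ms4a1 had a log2 fold change of -2.59 ± 1.85 (standard error, RARa403 over control), Cd79a -1.99 ± 1.95, Cd79b -1.65 ± 1.38 and Igkc -1.43 ± 1.79. Cd74 had -1.55 ± 1.42, H2-Aa -1.27 ± 1.6, Pax5 -1.17 ± 2.33, Ebf1 -0.88 ± 1.34 and Ighm -0.48 ± 0.70. These signs rested on replicate 3 of control spleen ILC1s. Without it all 9 turned positive, between 0.27 ± 0.75 for Ighm and 2.15 ± 1.70 for Ebf1, again with an adjusted p of 1. With replicates 2 and 3 alone, which share an opening code number, all 9 were below 0, between -0.57 ± 0.44 for Ighm and -2.59 ± 1.21 for Ms4a1, with an adjusted p of 1. The replicate-1 libraries, 1 in each group, allow no fit of their own.

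**Figure D4:**
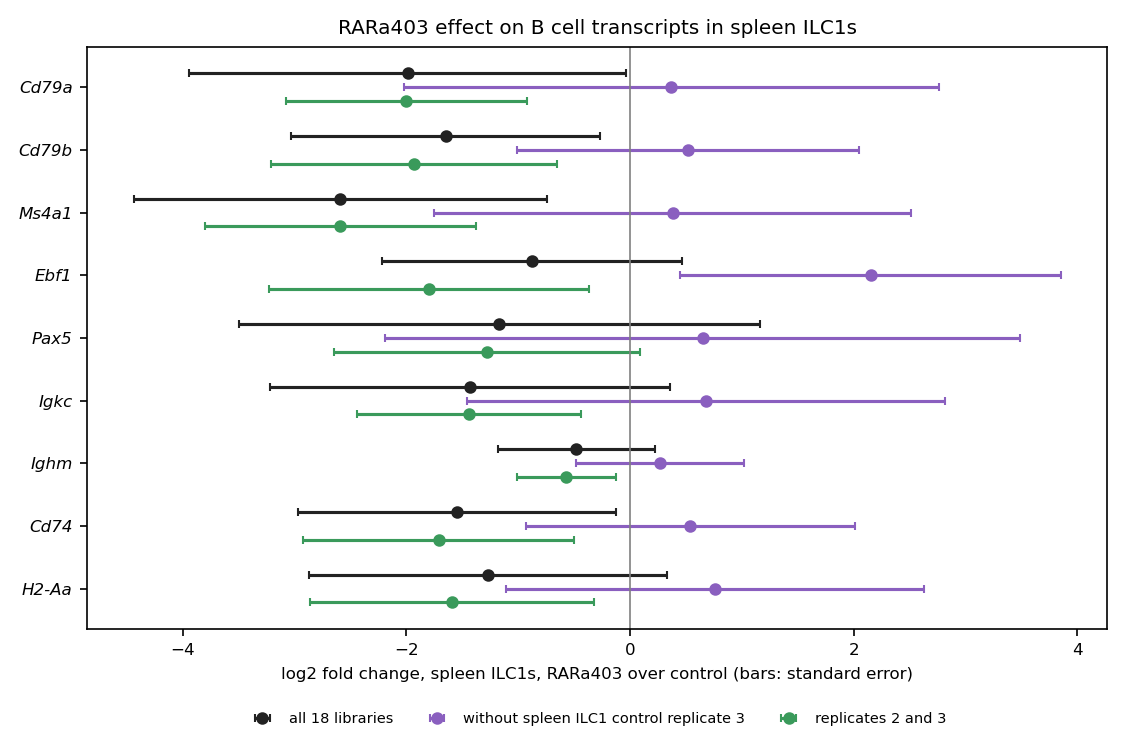
Log2 fold change of each member in spleen ILC1s, RARa403 over control (x axis), with standard errors as bars, from all 18 libraries, without control replicate 3, and from replicates 2 and 3 alone. The values lie between -2.59 and -0.48 with all libraries and between 0.27 and 2.15 without control replicate 3.

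In liver ILC1s 0 of 14714 genes passed by edgeR (0%), 432 had an unadjusted p under 0.05 and DESeq2 called 33, again no member among them. Ighm differed by -0.04 ± 0.70, Cd79b by -0.70 ± 1.36, Cd74 by 0.17 ± 1.40 and H2-Aa by -1.44 ± 1.65 on the log2 scale, RARa403 over control, each with an adjusted p of 1. No member's RARa403 and control libraries were without overlap, against 5.08% of all genes higher and 4.43% lower. The other 5 members had at most 42 counts in any liver ILC1 library and are given as counts only.

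In liver NK cells 0 of 14714 genes passed (0%), 1418 had an unadjusted p under 0.05 and DESeq2 called 153, none of them a member. Ighm differed by -0.29 ± 0.70 (adjusted p = 0.944) and Cd74 by 0.73 ± 1.45 (adjusted p = 0.926) in edgeR's test. Both values hold the library that stood apart, and without it they were 0.24 ± 0.46 and -0.84 ± 1.62. No member was without overlap, against 3.77% of genes higher and 4.72% lower.

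The RARa403 effect was also compared between spleen ILC1s and liver ILC1s. By edgeR 0 of 14714 genes passed (0%), 397 had an unadjusted p under 0.05, and DESeq2 called 18, with no member among them. The effect in spleen minus that in liver was -0.95 ± 1.91 for Cd79b, -0.44 ± 0.99 for Ighm, -1.71 ± 1.98 for Cd74 and 0.18 ± 2.23 for H2-Aa on the log2 scale, each with an adjusted p of 1. Standard errors of this size leave differences of several-fold in either direction undetectable with 3 libraries a group.

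Of other genes, 14 lists with 132 tested entries were compared between the genotypes. By edgeR 0 were called higher and 0 lower in RARa403 spleen ILC1s, liver ILC1s and liver NK cells, each against its control. At an unadjusted p under 0.05 there were 0 higher and 5 lower in spleen ILC1s, 7 and 8 in liver ILC1s, and 9 and 3 in liver NK cells. DESeq2 called 0 in spleen ILC1s, 1 higher (Cd55) and 2 lower (Apoa1 and Apoa2) in liver ILC1s, and 4 higher (Itga1, Ttr, Alb and Apoa1) in liver NK cells. In liver NK cells Alb, Ttr and Apoa1 had at most 7 counts in a RARa403 library and 0 in control. Itga1 had 798, 43 and 1 counts there in RARa403, against 0, 37 and 10 in control, with 798 in the library that stood apart. In liver ILC1s Apoa1 and Apoa2 were at 0 in RARa403, against 38, 0 and 4 and 149, 1 and 8 counts in control. In spleen ILC1s the median log2 fold change was -1.02 over the 14 receptor signalling genes, -0.83 over the 19 surface and stage genes and -0.86 over the 12 genes of the class II pathway, beside -0.003 over all genes. These medians include the same control replicate 3. H2-Ab1, the class II beta chain, had 355, 919 and 546 counts in RARa403 spleen ILC1s, against 130, 1051 and 4088 in control spleen ILC1s, so that it too was highest in that library.

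Between spleen and liver ILC1s, as a description, Ms4a1, Ebf1 and Igkc of the 9 members lay wholly higher in control spleen than in control liver ILC1s. By comparison 5.1% of all genes lay higher without overlap, and no member lay wholly lower, where 4.15% of genes did. By edgeR 0 of 14714 genes (0%) passed in that comparison, 468 had an unadjusted p under 0.05, and DESeq2 called 26. In RARa403 mice Ebf1, Pax5, Cd74 and H2-Aa did so, beside 4.24% of all genes, and no member lay wholly lower, where 4.72% of genes did. Ms4a1 and Igkc, which did not, were at 0 in RARa403 spleen replicate 1. Cd74 averaged 364 CPM in RARa403 spleen ILC1s against 73.6 CPM in RARa403 liver ILC1s, a ratio of 4.95, and 1070 CPM in control spleen ILC1s against 65.1 CPM in control liver ILC1s, a ratio of 16.5. Leaving out single libraries, done for these ratios after seeing the data, the first ratio ran between 2.87 (without RARa403 spleen replicate 2) and 6.67. The second ran between 3.86 (without control spleen replicate 3) and 24.6, and was 11.2 without control liver replicate 3.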

How the data were processed

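The authors' deposited table holds whole-number counts per gene for 18 libraries. The tools that the submitters' processing notes name are fastp 0.23.0, HISAT2 2.1.0, featureCounts and Subread 1.6.5, with mm10 as the genome build. The sources used here do not give the annotation release, the strand setting or the treatment of multiply aligned reads. Of 46078 genes, 45143 were matched to a symbol, and coordinates are those of the GENCODE annotation of mm10. CPM is the usual scaling of counts to the library total. The log2 CPM values instead use the total of the tested genes times edgeR's TMM scaling factor (0.68 to 1.06), with a prior count of 2. The shares of all genes without overlap were taken on that log2 scale.

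edgeR 4.0.16 in R 4.3.3 kept 14714 genes (filterByExpr, minimum count 10), scaled libraries by TMM and fitted a quasi-likelihood model with 6 group means to all 18 libraries. P-values were adjusted by the Benjamini-Hochberg method within each comparison over all 14714 genes, with a threshold of 0.05. The standard error given with an edgeR fold change is its absolute value over the square root of the F statistic, an approximation and not a fitted error. The common biological coefficient of variation was 0.862. The steps were tested on simulated data. Intervals are exact Poisson 95% intervals, and they and the floor of 3 counts cover counting error only, since reads carried no molecular identifiers.

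The members and gene lists were chosen with earlier results of these data known. The rule for naming genes took the 9 members, up to 4 genes of a list by adjusted p or else the 2 with the highest mean CPM, the 10 genes most like the members' mean, and the leading variable genes of the 3 libraries highest in the members. A gene that this rule names is not reported here. Other genes named as markers, and the leading variable genes of other libraries, were chosen after their values were seen. Alternatives were RLE scaling, no filter, DESeq2 1.42.0, the compared groups only, a replicate block, replicates 2 and 3 only, and leaving out libraries.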

Additional observations from a re-analysis of the deposited data

How the results depend on the processing

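No member passed the threshold in any of 269 refits of the 19 member fold changes printed, where the lowest adjusted p was 0.135, and 29 refits changed sign. Without replicate 3 of control spleen ILC1s the spleen log2 fold changes were 0.37 (Cd79a), 0.52 (Cd79b), 0.38 (Ms4a1), 2.15 (Ebf1), 0.65 (Pax5), 0.68 (Igkc), 0.27 (Ighm), 0.54 (Cd74) and 0.76 (H2-Aa). Over all single libraries left out, the lowest values were -2.71, -2.23, -4.15, -1.44, -1.78, -2.76, -0.81, -2.34 and -1.84 for the same genes in that order. In liver ILC1s these ranges were -0.24 to 0.30 for Ighm and -0.38 to 0.69 for Cd74, and in liver NK cells -1.25 to 0.24 for Ighm and -0.84 to 2.77 for Cd74. For spleen minus liver they were -1.53 to 1.22 for Cd79b, -0.78 to 0.31 for Ighm, -2.51 to 0.37 for Cd74 and -0.40 to 2.20 for H2-Aa. With replicates 2 and 3 alone, Ighm was 0.28 and Cd74 -1.29 in liver NK cells, and H2-Aa was -1.06 for spleen minus liver. The cause of these sign changes was not tested.

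The replicate numbers were not taken to pair the libraries, since the deviations of same-numbered spleen libraries correlated at 0.245, 0.089 and 0.02. Replicate 2 of one genotype with replicate 3 of the other gave 0.132 and 0.152. Replicate 1 with replicate 2 or 3 of the other genotype gave only negative values, between -0.192 and -0.108. Deviations from a group mean cancel out within the group, so these values are tied to the 0.245 and are no separate evidence. The main fit has no term for replicate 1 against replicates 2 and 3. With the replicate block Ighm was 0.06 in liver ILC1s, no gene passed in any contrast of RARa403 with control, and 69 passed in liver ILC1s against liver NK cells of control mice, where 89 passed without it.

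Genes passing in RARa403 against control numbered 0 in the 3 populations. DESeq2 called 33 in liver ILC1s, 153 in liver NK cells and 20 in spleen ILC1s, no filter on low counts gave 43, 523 and 32, and replicates 2 and 3 alone gave 1, 2 and 1. Leaving out single libraries gave 0 to 1 in liver ILC1s, 0 to 2 in liver NK cells and 0 in spleen ILC1s. For spleen minus liver the 0 became 18 with DESeq2 and 41 without the filter. Control spleen against control liver ILC1s had 0, with 26 by DESeq2, 78 without the filter and 0 to 1 leaving out libraries. Liver ILC1s against liver NK cells of control mice had 89, with 419 by DESeq2, 355 without the filter, 221 with replicates 2 and 3, 343 with only the groups compared, 290 without RARa403 liver NK replicate 1 and 18 to 55 leaving out a compared library.

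The summed level of 7 B cell members averaged 701 CPM in RARa403 and 1370 CPM in control spleen ILC1s. Leaving out libraries gave 560 to 877 and 541 to 1890 CPM, the lowest control value being without replicate 3. Without both immunoglobulin genes RARa403 averaged 112 CPM in spleen ILC1s, 14.6 in liver ILC1s and 7.76 in NK cells, and control 429, 24.6 and 1.94 CPM. Without Ighm alone, an alternative chosen after seeing the data, these were 202, 15.1 and 8.39 CPM in RARa403, against 676, 24.6 and 2.24 CPM in control.

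With at least 10 counts in place of 3, the median number of variable genes per library was 12 in RARa403 and 15 in control spleen ILC1s, 4 and 5 in liver ILC1s, and 2 and 1 in liver NK cells. Values under 0.332 to 0.869 CPM, the level of 3 counts, cannot be told from 0 at this depth.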
